A study of Mus musculus with 5 samples.

Results

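The promoters of chromatin regulator genes were followed in capture Hi-C of the supporting cells of the fetal mouse gonad. Members were found by name. A bait (a captured fragment, named by gene transcripts) counted if 1 of its gene symbols began with a family prefix such as Kmt, Kdm, Hdac, Smarc, Chd, Setd, Ezh, Arid, Prdm, Sirt, Kat, Tet, Dnmt or Phf and had a digit after that prefix. With the original baits, which are single restriction fragments, 77 of the 7674 baits on chromosomes 1 to 9 with a contact on their own chromosome were members. They belonged to 46 genes and had 385 of 28991 interactions. With the extended baits, which are bins of about 5 kb, 110 of 11063 baits from 66 genes were members, with 585 of 50644 interactions. The tables shared 44 genes, so 68 genes were seen in all. Phf3 and Prdm16 appeared with the original baits alone and 22 genes with the extended baits alone.

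The samples were gonads of E13.5 embryos (embryonic days counted from mating). Sertoli cells, the supporting cells of the testis, were sorted by Sox9IRES-GFP and gave 3 libraries. Pre-granulosa cells, their counterpart in the ovary, were sorted by Enh8-mCherry and gave 2 libraries. Each library was made from 100000 sorted cells cut with DpnII. The deposited tables hold 1 CHiCAGO score per interaction and cell type, which is taken to pool the libraries. No value below therefore has a replicate error, and no test between the cell types was possible. Read depth is unknown, and the tables hold no expression values by which the sorted cell types could be checked here.

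A CHiCAGO score rises as the reads joining a bait and a bin exceed those predicted from their distance. Scores of 5 and above were taken as calls. A contact called in both cell types is termed shared, and one called in a single cell type, with under 5 in the other, specific. Every listed interaction reached 5 in at least 1 cell type. Intervals are 95% intervals (Wilson for shares, binomial order statistics for medians) and cover counting error only, and neighbouring bins share signal. The interval of a ratio was converted from the Wilson interval of the Sertoli share of all calls. It treats the calls of the 2 cell types as independent, although a shared contact counts in both.

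Chromatin regulators write, remove and read chemical marks on histones and DNA, or move nucleosomes along DNA. Methyltransferases with a SET domain and acetyltransferases add histone marks, demethylases and deacetylases remove them, proteins with bromodomains, PHD fingers or chromodomains read them, and Chd and Smarc proteins and Arid1a belong to remodelling enzymes or complexes. Dnmt enzymes methylate DNA and Tet enzymes oxidise the methyl group. In the fetal gonad, the demethylase Kdm3a is known for removing histone methylation at the testis-determining gene Sry. The rule also took in genes with other roles. Katnal1 and Katnbl1 encode katanin proteins of the microtubule-severing machinery, and Sirt3 and Sirt4 encode mitochondrial sirtuins. Arid3b, Arid3c and Arid5a encode transcriptional regulators that bind DNA, and Phf24 a neuronal protein that binds inhibitory G proteins. The groups below were formed by prefix and hold such genes too.

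Promoter sequences are shown for 7 genes whose transcription start, as RefSeq gives it for GRCm38.p6 (mm10), lay in a member bait or in a bin that a member bait contacted. Of the 68 genes, 56 had an entry, with 78 starts. Each line is the 250 bases before the start, read on the strand of the gene. Setd6, Kdm7a, Phf21a, Prdm12 and Chd9 are starts inside a bait, and Tet3 and Kdm1a are starts inside a contacted bin of the same gene. The printed start need not be the outer 5′ end of the RefSeq gene. It lies 15.5 kb downstream of that end in Tet3, where the end is in the bait Tet3-203, 5.01 kb downstream in Prdm12 and 1.73 kb in Phf21a. In Chd9, Setd6, Kdm1a and Kdm7a it lies 0.533, 0.279, 0.0640 and 0 kb from it. The positions are chr8:95715663-95715912 (plus strand) for Setd6, chr6:39206774-39207023 (minus) for Kdm7a, chr2:92185233-92185482 (plus) for Phf21a and chr2:31639787-31640036 (plus) for Prdm12. Those of the other 3 are chr8:90828585-90828834 (plus) for Chd9, chr6:83441679-83441928 (minus) for Tet3 and chr4:136602724-136602973 (minus) for Kdm1a. Capitals mark, on either strand, every match to the GC box, whose letters are GGGCGG and which recruits Sp factors. They also mark each CCAAT box, spelled by its name, and each site of DpnII, the enzyme that cut the chromatin, which reads GATC. In Kdm1a they mark 1 match to a core of the CTCF motif (AGGGGGCGC) as well.
Setd6: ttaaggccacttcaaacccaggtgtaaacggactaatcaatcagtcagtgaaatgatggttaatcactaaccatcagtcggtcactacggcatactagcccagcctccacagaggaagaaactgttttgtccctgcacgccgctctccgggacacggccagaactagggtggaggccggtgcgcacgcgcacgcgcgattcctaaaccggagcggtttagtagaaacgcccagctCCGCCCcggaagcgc
Kdm7a: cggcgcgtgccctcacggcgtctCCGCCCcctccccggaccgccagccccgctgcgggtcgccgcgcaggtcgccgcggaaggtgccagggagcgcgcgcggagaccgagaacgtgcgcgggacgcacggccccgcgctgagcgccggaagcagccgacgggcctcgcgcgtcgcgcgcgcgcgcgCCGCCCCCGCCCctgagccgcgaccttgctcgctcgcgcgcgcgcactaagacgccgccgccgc
Phf21a: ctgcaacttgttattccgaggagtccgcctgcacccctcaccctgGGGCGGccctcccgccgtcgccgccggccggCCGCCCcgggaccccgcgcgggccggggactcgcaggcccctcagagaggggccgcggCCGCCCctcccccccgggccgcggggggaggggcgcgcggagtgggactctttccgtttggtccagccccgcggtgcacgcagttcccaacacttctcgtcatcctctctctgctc
Prdm12: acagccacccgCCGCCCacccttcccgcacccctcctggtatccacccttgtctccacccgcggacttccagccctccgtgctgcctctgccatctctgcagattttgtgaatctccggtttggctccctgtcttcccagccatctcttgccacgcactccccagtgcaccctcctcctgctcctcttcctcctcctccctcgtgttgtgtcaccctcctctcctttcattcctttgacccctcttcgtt
Chd9: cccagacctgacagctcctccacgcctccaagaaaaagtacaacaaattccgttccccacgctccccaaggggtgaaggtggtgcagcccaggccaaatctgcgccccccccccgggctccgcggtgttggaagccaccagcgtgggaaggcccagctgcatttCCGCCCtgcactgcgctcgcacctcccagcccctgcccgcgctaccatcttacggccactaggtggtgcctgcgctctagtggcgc
Tet3: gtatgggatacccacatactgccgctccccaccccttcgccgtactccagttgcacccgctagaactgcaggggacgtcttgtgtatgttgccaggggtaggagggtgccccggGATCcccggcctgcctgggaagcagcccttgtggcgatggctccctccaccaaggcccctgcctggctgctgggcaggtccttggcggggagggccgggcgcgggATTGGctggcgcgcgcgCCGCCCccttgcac
Kdm1a: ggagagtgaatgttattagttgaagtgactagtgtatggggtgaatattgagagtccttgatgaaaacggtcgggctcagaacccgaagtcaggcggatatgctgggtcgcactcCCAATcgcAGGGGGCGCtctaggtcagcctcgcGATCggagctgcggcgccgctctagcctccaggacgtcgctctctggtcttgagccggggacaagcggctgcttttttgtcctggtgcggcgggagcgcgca

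The windows of the members were rich in G and C. Their median GC content was 63%, against 52.4% over all 18612 starts on chromosomes 1 to 9, and the median ratio of observed to expected CpG was 0.809 against 0.368. A GC box lay in 51 of 78 member windows (65.4%, all starts 32.9%) and a CCAAT box in 31 (39.7%, all starts 33.7%). The DpnII site lay in 25 (32.1%, all starts 41.5%). Matches to the remaining motifs were rare: ETS (CCGGAAGT) in 1 window (1.28%, all 2.82%), NRF1 (TGCGCATGC) in 2 (2.56%, all 1.12%), YY1 (AAGATGGCG) in 1 (1.28%, all 0.543%), CTCF in 2 (2.56%, all 1.13%) and CRE (TGACGTCA) in 0 (all 1.51%). Matches of different motifs may overlap, and a match is a description of these letters, not a binding site. Both strands were searched.

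At a score of 5, most of these promoters had more called contacts in Sertoli cells than in pre-granulosa cells, as baits in general did. From the original baits 322 calls were made in Sertoli and 164 in pre-granulosa cells, so Sertoli outnumbered pre-granulosa calls by 1.96 (1.63 to 2.37), against 1.93 over all baits. Of the 385 interactions, 83.6% were Sertoli calls (background over all baits 80.2%) and 42.6% were pre-granulosa calls (background 41.5%). By gene, 36 of 46 had more Sertoli calls (78.3%, background 65.8%), 4 had more pre-granulosa calls (8.70%, background 21.9%) and 6 had equal numbers (Chd6, Hdac11, Kdm5b, Kmt5a, Prdm2 and Smarcad1). By bait, 57 of 77 had more Sertoli calls (74.0%, background 65.2%) and 9 had more pre-granulosa calls (11.7%, background 22.0%). The interval of the share of baits with more Sertoli calls, 63.3 to 82.5%, held the background value, and that of the opposite share, 6.27 to 20.7%, ended just under it. Many of the 77 baits belong to the same gene and are not independent, so the intervals are too narrow. Neither decides whether the members differ from the background.

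The size of the excess depended on the setting. It was 2.42 at a score of at least 7, 2.71 at 10 and 2.33 for contacts of 50 kb or more. Over all baits it was 2.27 at 50 to 100 kb and 2.67 both at 100 to 200 kb and beyond. No value over all baits is given for scores of 7 and 10, so those ratios have no background. When both cell types were given the same number of calls over all baits, which put the Sertoli threshold at 6.42, the members had 187 Sertoli and 164 pre-granulosa calls, a ratio of 1.14 whose interval, 0.925 to 1.41, held 1. Then 18 of 46 genes had more Sertoli calls (39.1%, all genes 31.6%) and 13 more pre-granulosa calls (28.3%, all genes 40.4%), and from extended baits 27 and 21 of 66 (40.9% and 31.8%, all genes 34.9% and 42.5%). Of the 64 baits that kept a call, 29 had more Sertoli calls (45.3%, 33.7 to 57.4%; all baits 37.9%) and 24 more pre-granulosa calls (37.5%, all baits 46.4%), so most baits no longer had more Sertoli calls. Extended baits gave a ratio of 1.47 (464 against 316 calls; all baits 1.41). The calls were 79.3% and 54.0% of the members' interactions there (backgrounds 78.7% and 55.9%). By gene, 40 of 66 had more Sertoli calls (60.6%, background 56.0%) and 9 had more pre-granulosa calls (13.6%, background 26.8%). By bait the shares were 57.3% (background 53.6%) and 21.8% (background 26.4%).

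The setting also decided the direction for several genes described below. At equal numbers of calls Chd2 had 17 Sertoli against 20 pre-granulosa calls, Kdm1a 9 against 14 and Phf24 11 against 13, whereas each had more Sertoli calls at a score of 5. Phf21a (13 of each) and Arid1a (9 of each) came out level. Setd2 (18 against 13), Smarcc1 (12 against 8), Kmt2e (8 against 5), Setd6 (8 against 7), Kdm7a (6 against 3) and Prdm12 (5 against 1) stayed on the Sertoli side, and Ezh2 had 6 against 16. By role, extended baits gave 135 Sertoli against 88 pre-granulosa calls for methyltransferase and SET domain prefixes (1.53 to 1, original baits 2), 39 against 28 for demethylases (1.39, original 1.95) and 151 against 92 for remodellers (1.64, original 1.54). They gave 72 against 65 for readers and Polycomb partners (1.11, original 2) and 25 against 13 for deacetylases (1.92, original 3.50). Over all baits the values were 1.41 for extended and 1.93 for original baits. Of the remodeller calls from extended baits, 44 and 18 came from 1 bait, which names Smarcc1-202 and 2 transcripts of Dhx30. That bait lies outside the RefSeq gene Smarcc1.

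**Figure D1:**
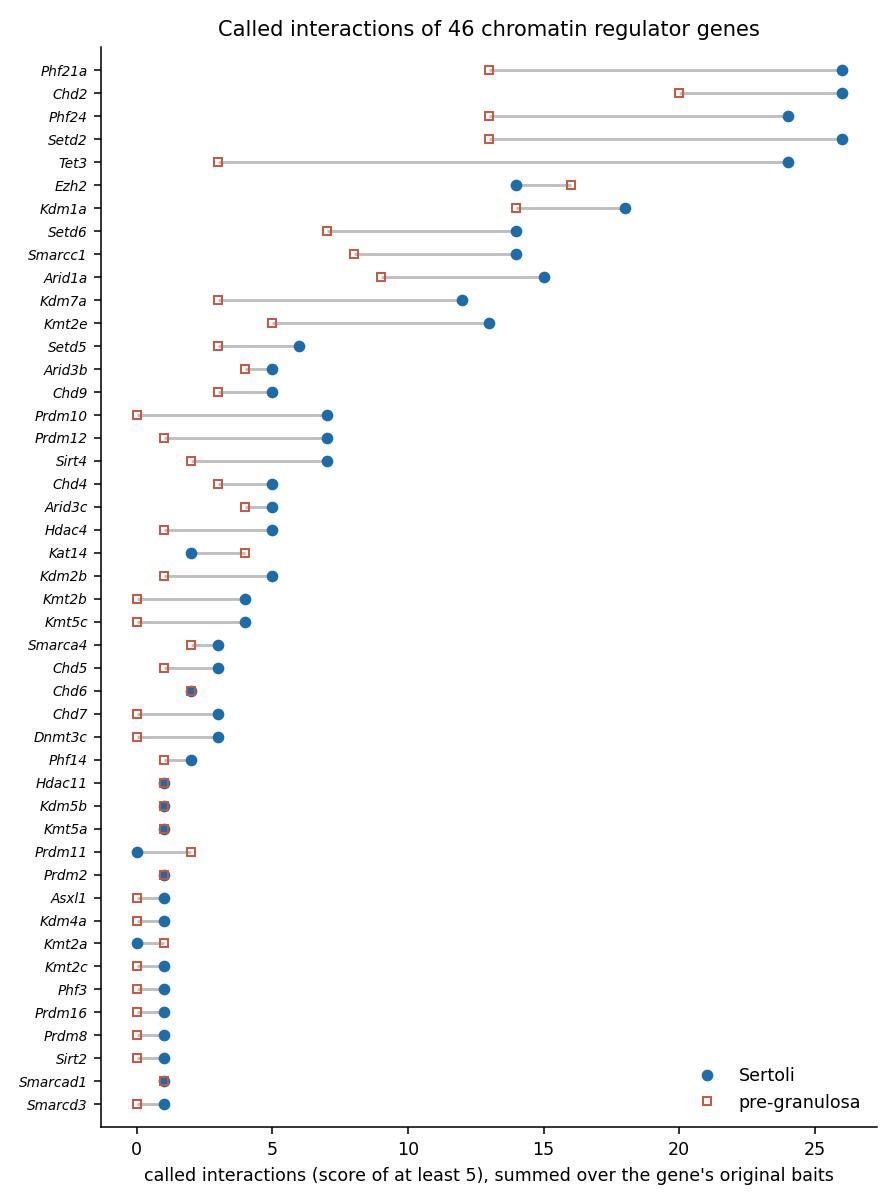
Called interactions (x axis, number at a score of at least 5) of the 46 genes with an original bait (y axis), summed over the baits of each gene. Filled circles are Sertoli cells, open squares pre-granulosa cells and the grey line joins them; Tet3 has the widest gap, 24 against 3, and Ezh2, Kat14, Prdm11 and Kmt2a lie the other way.

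The contacts were unevenly spread over the genes. The median member bait had 3 listed interactions (all baits 2), 14 of 77 baits had 10 or more (18.2%, all baits 8.43%), 22 had 1, and the 10 richest baits held 39.5% of the interactions. Bait fragments were also longer, with a median of 1117 bp against 758 bp over all baits, and the part of fragment length in the number of contacts was not tested. Phf21a had 35 listed interactions over 4 baits, Chd2 33 over 5, Phf24 28 over 3, Setd2 27 over 2 and Tet3 24 over 2.

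Shared contacts were a minority. In all, 101 of the 385 interactions were called in both cell types (26.2%, background 21.7%), which made up 31.4% of what Sertoli cells had (26.5 to 36.6%; all baits 27.0%) and 61.6% of what pre-granulosa cells had (54.0 to 68.7%; all baits 52.3%). Among extended baits 195 of 585 were shared (33.3%, background 34.6%). Specific did not mean absent from the other cell type: among the 221 Sertoli-specific contacts the score in pre-granulosa cells reached 3 in 81 and stayed under 1 in 49. Among the 63 that were pre-granulosa-specific, the Sertoli value reached 3 in 27 and stayed under 1 in 5. Part of the 49 were listed at exactly 0 in pre-granulosa cells, and a 0 can stand beside a scored reverse contact. Without interactions listed at 0, Sertoli calls fell from 322 to 310 and the 164 pre-granulosa calls stayed. Of the 101 shared interactions, 86 were also listed with the extended baits, 65 of them again as shared.

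**Figure D2:**
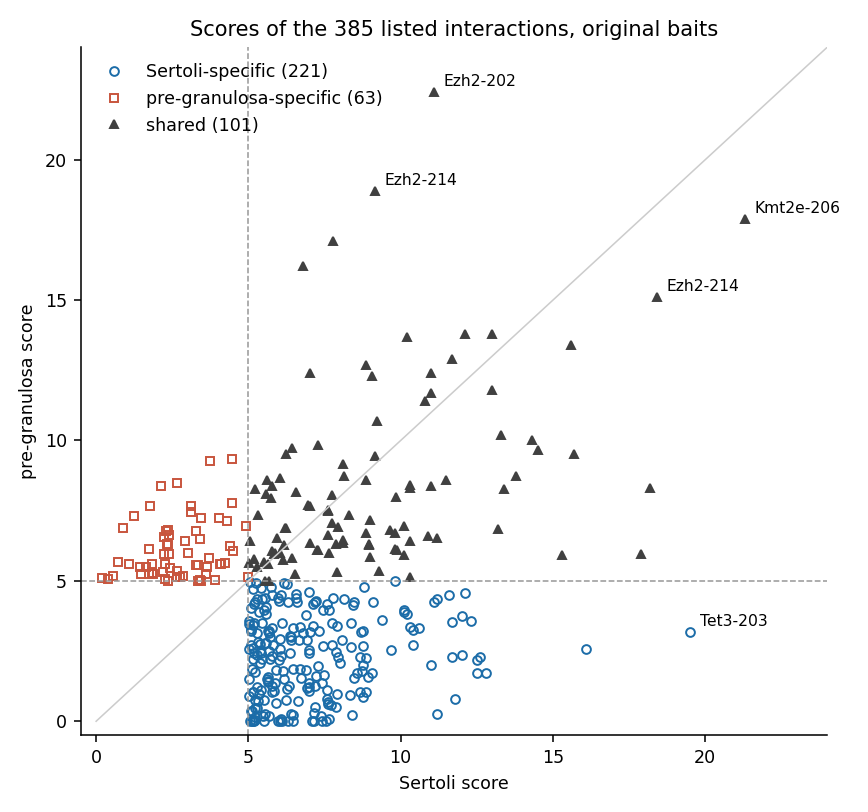
Sertoli score (x axis) against pre-granulosa score (y axis) of the 385 listed interactions of the original baits, with dashed lines at the threshold of 5 and a grey line of equality. The highest shared scores belong to Kmt2e-206 and the Ezh2 baits, and Tet3-203 reaches 19.5 in Sertoli against 3.18 in pre-granulosa cells.

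Shared contacts lay closer to the bait than specific ones. Their median distance was 18.5 kb (13.7 to 24.1 kb), against 54.7 kb (44.2 to 68.6 kb) for Sertoli-specific and 62.5 kb (33.5 to 72.9 kb) for pre-granulosa-specific contacts. Over all baits the 3 medians were 17.3, 53.6 and 36.6 kb. Over all calls the members' median distance was 38.9 kb in Sertoli cells (all baits 42.6 kb) and 27.7 kb in pre-granulosa cells (all baits 26.0 kb). By distance, the number of Sertoli calls per pre-granulosa call was 1.88 under 10 kb (all baits 1.44), 1.26 at 10 to 25 kb (1.68) and 2.48 at 25 to 50 kb (1.93). It was 1.85 at 50 to 100 kb (2.27), 2.79 at 100 to 200 kb (2.67) and 4 beyond, from 12 and 3 calls (2.67). The members' values thus had no steady order, whereas those of all baits rose from class to class up to 200 kb. At 100 kb or more lay 79 Sertoli calls (24.5%, all baits 25.3%) and 27 in pre-granulosa cells (16.5%, all baits 18.3%).

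The contacted bins often lay in the body of the bait's own gene. This held for 154 of 319 Sertoli calls whose gene was in the RefSeq table (48.3%, 42.8 to 53.7%; all baits 27.9%) and for 94 of 164 pre-granulosa calls (57.3%, 49.7 to 64.6%; all baits 32.0%). Chromatin regulator genes are long: the median RefSeq length was 72.1 kb, against 19.1 kb for all genes with a bait. Split by length, a division chosen after seeing the data, the gap to other baits differed between classes and had the other sign for the longest genes. For genes under 25 kb the Sertoli share was 20% for members and 10.9% for other baits, and the pre-granulosa share 12.5% and 13.0%. At 25 to 50 kb, from 14 and 11 calls of members, it was 50% (26.8 to 73.2%) against 28.2% in Sertoli cells and 72.7% (43.4 to 90.3%) against 33.9% in pre-granulosa cells. For genes of 50 to 100 kb it was 52.5% (44.8 to 60.0%) against 44.5% in Sertoli cells and 64.4% (53.9 to 73.6%) against 52.0% in pre-granulosa cells. For genes of at least 100 kb it was 54.1% (44.2 to 63.6%) against 62.9%, and 56% (42.3 to 68.8%) against 68.4%.

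**Figure D3:**
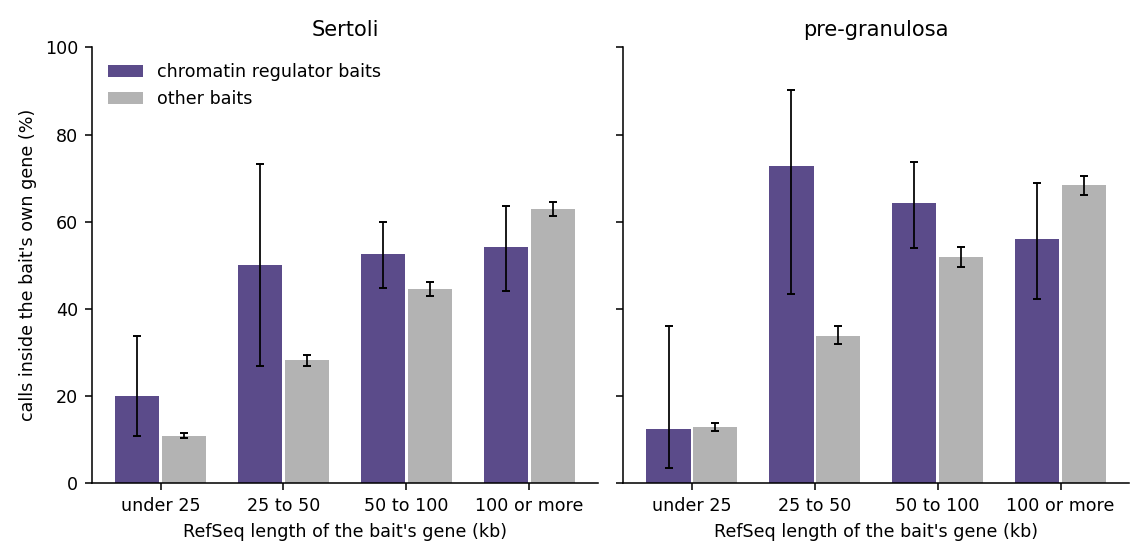
Share of calls whose bin lies in the bait's own gene (y axis, percent) by the RefSeq length of that gene (x axis, kb), for chromatin regulator baits (purple) and the other baits of chromosomes 1 to 9 (grey), original baits; bars are shares and lines 95% Wilson intervals. Other baits rise with length in both cell types, from 10.9% to 62.9% and from 13.0% to 68.4%, while the members' pre-granulosa share runs 12.5%, 72.7%, 64.4% and 56%.

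Many of the member baits were not at a start of their gene in the RefSeq promoter table. Of 77 original baits, 31 held such a start (40.3%, all baits 49.0%), 32 held none (41.6%, all baits 34.1%), and 14 were of genes without an entry. Of the 32, Chd9-201, Setd5-201 and Tet3-203 held the outer 5′ end of the RefSeq gene, so 34 of 63 baits with an entry held a start of either kind (54.0%, 41.8 to 65.7%; all baits 60.5%). Of the same 32, 29 lay inside the gene, and their median distance to the nearest start in the table was 19.6 kb (all such baits 7.49 kb). They had 6.41 listed interactions on average (all such baits 4.21), against 3.87 for baits that held a start in the table (all such baits 3.52), and their calls stood at 1.93 Sertoli per pre-granulosa call, against 2.02 at the starts. Relative to the gene's direction, 55.7% of the members' contacts in Sertoli cells (49.8 to 61.5%) and 47.8% of those in pre-granulosa cells (39.7 to 56.1%) lay upstream of the bait (all baits 48.6% and 48.3%).

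Among DNA methylation genes most calls with the original baits were in Sertoli cells. Over Tet3 and Dnmt3c there were 27 Sertoli calls against 3, of which Tet3 gave 24 and 3. From the extended baits of 5 genes it was 32 against 14, a ratio of 2.29. Tet3 encodes an enzyme that oxidises 5-methylcytosine. Its bait Tet3-203 (chr6:83455285-83457518, minus strand), which holds the 5′ end of the RefSeq gene and lies 14.7 kb from the start printed above, had 15 Sertoli calls and 1 pre-granulosa call, the widest Sertoli excess among the original baits of the members. Sertoli scores ran from 5.22 to 19.5 with a median of 7.61, and the pre-granulosa scores of the same bins had a median of 1.86 and a highest value of 5.97. The Sertoli score was the higher one in 15 of 15 bins.

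The strongest Tet3-203 contact joined a bin 5.44 kb away between genes (chr6:83459277-83464401), at 19.5 in Sertoli and 3.18 in pre-granulosa cells. The next, 12.3 kb away on the other side, joined the bin that holds the internal RefSeq start of Tet3 printed above and the start of B230319C09Rik. It scored 17.9 in Sertoli and 5.97 in pre-granulosa cells and was the bait's single shared contact. The neighbouring bait Tet3-204 (9 listed interactions) contacted the same bin at 5.09 and 3.21. At equal numbers of calls Tet3 kept 18 Sertoli against 3 pre-granulosa calls. The extended bait that covers both had 23 Sertoli and 10 pre-granulosa calls, 9 of them shared, so the gap was narrower there. It met the bin with the internal start at 12.5 and 2.77, so that this contact was Sertoli-specific in the extended table.

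Dnmt3c, a DNA methyltransferase of the male germ line in rodents, had 3 Sertoli-specific contacts with bins in Mapre1 and Efcab8, 67.9 to 97.2 kb away. Their Sertoli scores were 8.75, 8.86 and 7.64, and the pre-granulosa scores 0.857, 1.06 and 0.0749. Dnmt3b, which methylates DNA de novo, had an extended bait alone. It shared a contact 20.9 kb away (Sertoli 14.2, pre-granulosa 7.61). It also contacted the Dnmt3c bait 47.8 kb away at 2.70 in Sertoli and 5.66 in pre-granulosa cells, the one listed interaction that joined members of different genes.

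**Figure D4:**
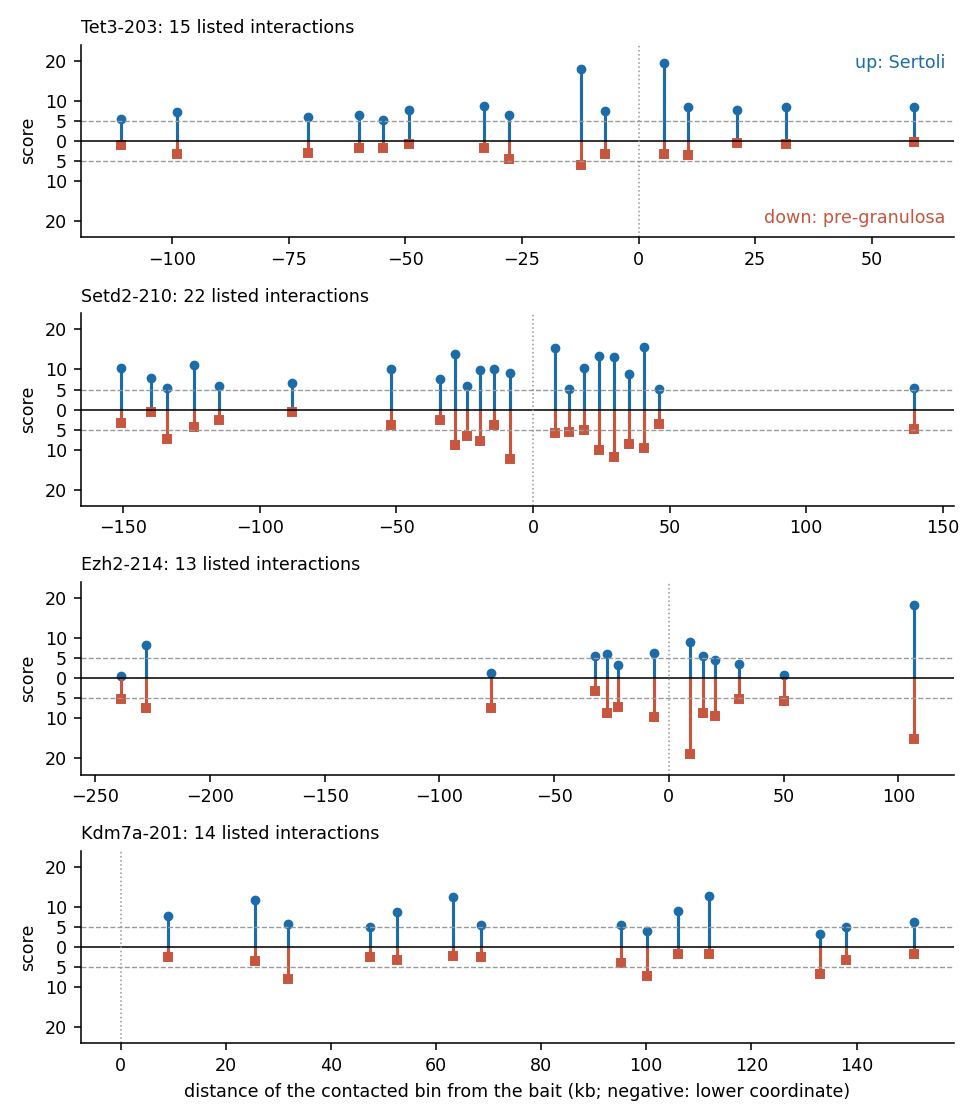
Scores of every listed interaction of 4 baits (y axis; Sertoli upwards in blue, pre-granulosa downwards in red) by distance from the bait (x axis, kb), with dashed lines at the threshold of 5. Tet3-203 has 1 pre-granulosa call against 15 Sertoli calls, Setd2-210 is called on both sides in both cell types, Ezh2-214 has the taller pre-granulosa scores near the bait, and the 14 contacts of Kdm7a-201 lie on 1 side.

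Among the methyltransferases and other SET domain genes, there were 100 Sertoli and 50 pre-granulosa calls. Ezh2 had more pre-granulosa calls and Setd2 more Sertoli calls. Ezh2 is the catalytic subunit of Polycomb repressive complex 2, which methylates histone H3 at lysine 27. Its bait Ezh2-214 (chr6:47540275-47541046, 54.4 kb from the RefSeq start) had 7 Sertoli and 12 pre-granulosa calls, 6 shared, the widest pre-granulosa excess among the original baits of the members. The pre-granulosa score was the higher one in 10 of 13 bins.

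Both Ezh2 baits reached the same distant bin, chr6:47645014-47650285, outside the gene, which holds the RefSeq start of Gm40371. From Ezh2-214 it lay 107 kb away and scored 18.4 in Sertoli and 15.1 in pre-granulosa cells. From Ezh2-202 (chr6:47577234-47577718), which had 7 Sertoli and 4 pre-granulosa calls, it lay 70.2 kb away and scored 11.1 and 22.4, the highest pre-granulosa score of a member with the original baits. Baits of Cntnap2 and Cul1 contacted that bin too, so it was not met from Ezh2 alone. Inside the gene, the bin 8.98 kb from Ezh2-214 scored 9.16 in Sertoli and 18.9 in pre-granulosa cells. From its extended baits Ezh2 had 12 Sertoli and 21 pre-granulosa calls, and its 3 contacts between baits of the gene were pre-granulosa-specific.

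Setd2 encodes the enzyme that trimethylates histone H3 at lysine 36 in transcribed genes. The bait Setd2-210 (chr9:110573343-110573941, 41.0 kb from the RefSeq start) had the most listed interactions among the original baits of the members: 22 in Sertoli cells, of which 12 were called in pre-granulosa cells too. Of the Sertoli bins, 13 lay in Setd2 itself. The 7 bins from 8.06 to 40.7 kb on the higher-coordinate side were called in both cell types, with Sertoli scores of 5.02 to 15.7 and pre-granulosa scores of 5.15 to 11.8. On the other side the contacts beyond 50 kb, in and near Klhl18 and Kif9, were mostly Sertoli-specific. The farthest, 151 kb away, scored 10.4 and 3.26. As extended baits, Setd2-209 and Setd2-210 contacted each other at 21.4 and 17.3, and at 14.8 and 14.1 in the reverse direction.

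Kmt2e, a SET domain protein with a PHD finger, held the highest Sertoli score of a member with the original baits. Kmt2e-206 (chr5:23484925-23485857) contacted the bin 5.21 kb away at 21.3 in Sertoli and 17.9 in pre-granulosa cells. It had 13 Sertoli and 5 pre-granulosa calls. A bin 37.2 kb away in the gene scored 16.1 and 2.58, and 3 bins of Srpk2 at 164 to 180.0 kb scored 5.14 to 5.51 in Sertoli cells and at most 0.762 in pre-granulosa cells.

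Setd6, a lysine methyltransferase whose bait holds the start printed above, had no called bin inside its own short gene. Setd6-201 (chr8:95713641-95716730) had 14 Sertoli and 7 pre-granulosa calls, with 3 shared. Of its 18 bins, 8 lay in Cnot1, with 6 Sertoli and 3 pre-granulosa calls, 1 of them shared. The shared bin chr8:95830560-95836784, 118 kb away at the RefSeq start of Gm31805, scored 18.2 and 8.32. Baits of Cnot1 and Ndrg4 contacted it as well. The longest contact of a member with the original baits, 266 kb to Csnk2a2, scored 5.97 in Sertoli cells beside a listed 0 for pre-granulosa.

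Prdm12 and Prdm10 had Sertoli contacts in a neighbouring gene. Prdm12, which acts in pain-sensing neurons, had 7 Sertoli calls and 1 pre-granulosa call. Its 5 consecutive bins of Ass1, 146 to 167 kb away, scored 6.99 to 12.0 in Sertoli cells and 2.28 to 6.15 in pre-granulosa cells. Prdm10-201 had 5 Sertoli calls, 4 of them in Aplp2 at 116 to 152 kb, with Sertoli scores of 6.11 to 11.8 and pre-granulosa scores of at most 3.17. Prdm11-206 lay the other way, with 2 pre-granulosa-specific contacts scored 6.89 and 5.50 against Sertoli scores of 0.891 and 1.44. Prdm2-201 had a single contact, 129 kb away, that was pre-granulosa-specific (Sertoli 0.391, pre-granulosa 5.07).

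Further SET domain genes differed in their number of contacts. Kmt2a, the founding member of the trithorax-type methyltransferases, had 1 pre-granulosa-specific contact 4.63 kb away (Sertoli 4.07, pre-granulosa 5.60), and with the extended bait 1 Sertoli and 3 pre-granulosa calls. Setdb1, which methylates histone H3 at lysine 9, had an extended bait alone. That bait contacted the Arnt-203 bait 76.3 kb away at 32.3 in Sertoli and 9.13 in pre-granulosa cells, and at 7.83 and 3.27 in the reverse direction. Kmt2b and Kmt5c, seen from 2 original baits each, had 4 Sertoli calls and no pre-granulosa call. As extended baits they had 9 and 4, and 11 and 7. Setd5-202 had 5 Sertoli and 3 pre-granulosa calls, and its strongest contact, 44.2 kb away in Thumpd3, scored 12.5 and 2.19. From extended baits Setd5 had 9 Sertoli and 9 pre-granulosa calls, and Setd5-202 met a bait of Thumpd3 at 12.2 and 5.16.

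Demethylase genes had 37 Sertoli and 19 pre-granulosa calls. Kdm1a encodes LSD1, a demethylase of histone H3 at lysine 4. Kdm1a-207 (chr4:136567772-136568611, 34.5 kb from the RefSeq start) had 16 Sertoli and 12 pre-granulosa calls with 9 shared. The median score over its 19 bins was 5.67 in Sertoli and 5.61 in pre-granulosa cells, but the 3 bins beyond 200 kb were Sertoli-specific, with pre-granulosa scores of 0.200, 1.41 and 0.305. The nearest bin, 4.08 kb away, scored 11.7 and 12.9, and a bin between genes 115 kb away scored 11.0 and 12.4. The bin 35.6 kb away with the RefSeq start of Kdm1a scored 5.05 and 4.96, on either side of the threshold. As an extended bait, Kdm1a-207 had 9 Sertoli and 11 pre-granulosa calls, and the gene had 13 of each.

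Kdm7a, a demethylase of histone H3 at lysines 9 and 27, had fewer pre-granulosa calls. Kdm7a-201 (chr6:39206476-39208187), which holds the start printed above, had 12 Sertoli and 3 pre-granulosa calls, with 1 shared. Its 14 listed contacts lay on the upstream side, away from the gene, at 8.99 to 151 kb. The highest Sertoli scores were 12.8 at 112 kb and 12.6 at 63.2 kb, where the pre-granulosa scores were 1.72 and 2.30. At 100.2 and 133 kb, 2 bins were pre-granulosa-specific at 7.23 and 6.76 beside Sertoli scores of 4.02 and 3.28. Kdm3a had an extended bait alone, with 1 Sertoli-specific contact 198 kb away (9.74 and 1.90) and 1 pre-granulosa-specific contact 75.2 kb away (2.06 and 7.27).

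Genes with the prefixes of readers and Polycomb partners had 54 Sertoli and 27 pre-granulosa calls, most of them from Phf21a and Phf24. Without Phf24, which is no known reader, they had 30 and 14, but 48 and 48 from extended baits. Phf21a encodes BHC80, a reader of unmethylated histone H3 lysine 4 that works with LSD1. The same bin between genes was contacted from 3 of its baits: chr2:92058165-92063339, 125 to 161 kb upstream. The Sertoli scores were 11.7 from Phf21a-210, 7.95 from Phf21a-211 and 5.07 from Phf21a-203. The pre-granulosa scores were 2.29, 6.93 and 0.358, so Sertoli was the higher one from each bait. No bait of another gene was listed with that bin.

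The baits Phf21a-210 (chr2:92185094-92185876) and Phf21a-211 (chr2:92185877-92187265) are neighbouring fragments. They had 8 Sertoli and 6 pre-granulosa calls, and 11 Sertoli and 4 pre-granulosa calls. A bin 107 kb from Phf21a-211 inside the gene scored 3.75 and 9.28 from that bait, while Phf21a-203 met it at 7.16 and 0.00610. The direction of the difference at that bin was thus opposite from the 2 baits. Phf24 had 24 Sertoli and 13 pre-granulosa calls, and 7 of the Sertoli calls came from Phf24-207, which had no pre-granulosa call. From extended baits Phf21a had 32 Sertoli and 36 pre-granulosa calls.

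Genes with remodeller prefixes had 88 Sertoli and 57 pre-granulosa calls, or 78 and 49 without Arid3b and Arid3c. Chd2, a nucleosome remodeller, had 26 Sertoli and 20 pre-granulosa calls over 5 baits. Chd2-204 (chr7:73536470-73537736) met its close bins at 15.6 and 13.4 (9.52 kb) and at 7.77 and 17.1 (4.42 kb). On the higher-coordinate side it contacted 5 consecutive bins from chr7:73603278 to 73629607, at 68.8 to 89.8 kb. Their Sertoli scores ran from 4.09 to 12.1 and the pre-granulosa scores from 5.61 to 13.8, and 4 of the 5 were shared. Chd2-203 met 4 of these 5 bins as well. Both baits also contacted the bin with the start of Chaserr, a long noncoding RNA known to restrain Chd2 in cis, at 5.20 and 5.78 from Chd2-204 and at 6.22 and 6.89 from Chd2-203. In the extended table the bin with that start was called in pre-granulosa cells alone, where it scored 7.03 from Chd2-204 and 5.56 from Chd2-203, while the Sertoli score was at most 2.61. The 3 Chd2 baits that met chr7:73618698-73624104 were the only baits listed with that bin.

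Chd9, of the same family, held the strongest contact of a member with another bait. In the extended table, Chd9-210 contacted the bait of Chd9-201 and Chd9-202, which holds the start printed above, 125 kb away at 38.7 in Sertoli and 31.9 in pre-granulosa cells. The reverse contact scored 30.1 and 24.1. Chd9-205 and Chd9-213 contacted that bait too, at 20.7 and 10.2 and at 15.2 and 16.4. With the original baits the same pair of regions was less even. Chd9-210 met the bin beside the start at 12.5 and 1.71, and Chd9-202 met a bin close to Chd9-210 at 6.80 and 16.2.

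Arid1a, a subunit of the BAF remodelling complex, had 15 Sertoli and 9 pre-granulosa calls. From Arid1a-204 (chr4:133723192-133724500), 8 consecutive bins 7.50 to 47.0 kb away were called in Sertoli cells at 5.29 to 13.2, and 6 of them in pre-granulosa cells, where the scores ran from 3.15 to 8.40. Chd4, the ATPase of the NuRD complex, had 5 Sertoli and 3 pre-granulosa calls within 20.9 kb, one of them 8.50 kb away and shared at 11.5 and 8.61. From extended baits Chd4 had 7 of each, and Chd4-204 had 5 Sertoli and 6 pre-granulosa calls. Chd7 had 3 Sertoli-specific contacts at 5.12 to 5.71. Smarca5 had no bait in either table.

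Smarcc1, a core BAF subunit, had 14 Sertoli and 8 pre-granulosa calls. Smarcc1-205 met its nearest bin, 3.09 kb away, at 13.0 and 13.8, and Smarcc1-202 met the same bin (chr9:110229143-110234231), 114 kb away, at 11.2 and 0.262. The extended bait that joins Smarcc1-202 with 2 transcripts of Dhx30 had 44 Sertoli and 18 pre-granulosa calls. That is the most Sertoli calls of a member bait, while the extended bait of Phf21a-210 and Phf21a-211 had the most pre-granulosa calls, 24 beside 23 Sertoli calls. As a contacted bin, that bait (chr9:110114205-110119356) was listed at 0 in Sertoli cells from 12 of 12 baits, among them Smarcc1-201, which scored 15.6 in pre-granulosa cells, although the reverse contact scored 4.58 in Sertoli cells. These zeros are therefore not taken as a lack of contact. Likewise, the bin of Zfp668 and Zfp646 was listed at 0 in pre-granulosa cells from 14 of 14 baits. Setd1a met it at 22.4 and Kat8 at 24.8 in Sertoli cells, while the reverse contacts scored 10.5 and 8.55, and 6.67 and 4.33, in Sertoli and pre-granulosa cells.

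Deacetylase genes had 14 Sertoli and 4 pre-granulosa calls from original baits, an excess that was smaller from extended baits, where Hdac4 had 1 of each. Hdac4, a class IIa deacetylase, met a bin outside the gene from both of its baits. From Hdac4-201 it lay 209.9 kb away and scored 6.74 and 1.54. From Hdac4-202 it lay 178 kb away and scored 9.82 and 6.70. A pair of further Hdac4-201 contacts, 164 and 258 kb away, scored 7.55 and 5.50 in Sertoli cells and were listed at 0 in pre-granulosa cells. Hdac1 had an extended bait alone with 4 Sertoli-specific contacts, scored 5.17 to 12.2 against 2.74 to 3.68. Sirt4-202, of a mitochondrial sirtuin, had 7 of the 14 Sertoli and 2 of the 4 pre-granulosa calls, with its nearest bin at 10.8 and 11.4. Of the 25 Sertoli calls from extended baits, Sirt2, Sirt3 and Sirt4 gave 8, 5 and 5. Of the 13 pre-granulosa calls they gave 6, 3 and 2.

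The acetyltransferase gene Kat14, whose product belongs to the ATAC complex, was among the 4 genes with more pre-granulosa calls. Its 3 baits contacted 1 bin of the gene, chr2:144385754-144390889. The pre-granulosa scores were 6.43, 5.60 and 5.50 and the Sertoli scores 2.92, 1.82 and 5.27. Kat14 had, from extended baits, 2 Sertoli and 9 pre-granulosa calls, and Kat14-201 met the bait of Kat14-202 at 3.04 and 12.1, with 0.849 and 7.49 in reverse.

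Genes with several baits were common among the members, and their baits often met each other. Of 46 genes, 22 had 2 or more original baits (47.8%, all genes 25.9%), and 57 bins in 14 genes were contacted from 2 or more baits of a gene, 41 of them called from 2 or more in Sertoli and 16 in pre-granulosa cells. These counts stood at 2.56 to 1 (all genes 2.73, from 2774 bins), and at 1.38 to 1 in the extended table (all genes 1.65). In the extended table, 223 interactions of members ended at another bait (38.1%, all baits 54.8%). Of these, 68 joined baits that share a gene (30.5%, 24.8 to 36.8%; all baits 12.6%). These 68 joined 47 different pairs of baits, since many had their reverse among the 68 too, so the interval is too narrow. In all, 44 had their reverse listed, some of them starting at a bait outside the members. The 68 include contacts of the bait of Smarcc1-202 and Dhx30 with Dhx30-201 and Dhx30-218. Those baits are not members, and without them 66 contacts joined member baits of a gene. Of the 68, 34 were shared, 16 Sertoli-specific and 18 pre-granulosa-specific, which is 50%, 23.5% and 26.5% (all baits 54.4%, 29.1% and 16.6%). Without the contacts of Smarcc1-201 and Smarcc1-205 with the bin listed at 0 in Sertoli cells, 16 of 66 were pre-granulosa-specific (24.2%, all baits without zeros 16.3%). Baits of a gene share sequence context and targets, and they are not replicates of each other.

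**Figure D5:**
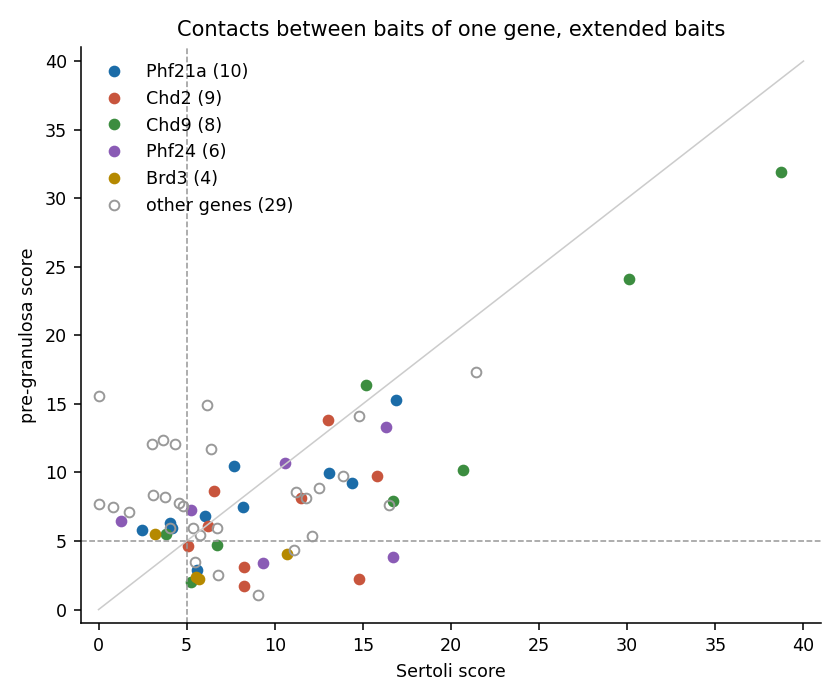
Sertoli score (x axis) against pre-granulosa score (y axis) of the 66 contacts between member baits of a gene with the extended baits, coloured for the 5 genes with the most; numbers in the key count interactions, dashed lines mark the threshold of 5 and the grey line equality. The Chd9 contact at 38.7 and 31.9 lies farthest out, near the line.

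Contacts between a member and another gene's bait were shared in 57 of 155 cases (36.8%, all baits 39.4%). The highest lower score belonged to Kmt2b, a trithorax-type methyltransferase, and Igflr1, 16.0 kb apart, at 33.6 in Sertoli and 24.5 in pre-granulosa cells (reverse 18.7 and 14.9). Kat8, the acetyltransferase of histone H4 lysine 16, met the bait of Prss53 and Vkorc1 16.5 kb away at 29.8 and 17.6 (reverse 8.96 and 5.63). At longer range, Kdm5a-209 met a bait of Wnk1 440.1 kb away at 15.2 and 9.76.

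Subunits and regulators whose symbols the rule did not catch had a similar excess of Sertoli calls. From a list of 108 such genes, 36 had an original bait, with 250 Sertoli and 120 pre-granulosa calls, a ratio of 2.08. Of their 56 baits, 37 had more Sertoli calls (66.1%, background 65.2%) and 11 more pre-granulosa calls (19.6%, background 22.0%). By group the ratio was 2.50 for Polycomb subunits, 1.56 for histone methylation genes, 2.53 for deacetylase and acetyltransferase complexes and 2 for remodellers and readers (all baits 1.93). For extended baits the list's ratio was 1.55 (381 against 246 calls), with 1.10 for Polycomb subunits (45 against 41), 1.86 for histone methylation genes, 1.51 for deacetylase and acetyltransferase complexes and 1.67 for remodellers and readers (all baits 1.41). The order of the groups thus differed between the tables.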

How the data were processed

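Capture Hi-C of 3 Sertoli and 2 pre-granulosa libraries was analysed from 2 tables that the authors deposited, 1 for original and 1 for extended baits. Per the file headers, each interaction has 1 score per cell type, and the labels name CHiCAGO as its source. The genome was mm10, per the submitters' processing notes. The aligner and its settings are not given in the sources used here. Coordinates are those of the tables.

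Members were found by symbol among interactions within chromosomes 1 to 9, and the same values were computed over all baits there. Distances run between centres. Gene bodies, starts and sequences come from RefSeq GRCm38.p6. The members, gene lists and rules were chosen with earlier results of these data known. Named in the text are the baits with the most calls, the widest excesses, the highest and most different scores and the longest contacts, with 12 genes of interest and the strongest bait-to-bait contacts, and further baits chosen after their values were seen. The 9 alternatives were thresholds of 7 and 10, the extended baits, a minimum distance of 50 kb, equal numbers of calls, interactions listed at 0 left out, touching bins merged, and 2 narrower memberships (symbols of other gene types left out, and baits that also name an outside gene left out). The narrower memberships left out no original bait, so they could change no value. One gene is counted in the totals but not reported here by name. The split by gene length, and the count of contacts between baits of a gene without zeros, were added after seeing the data. Counting was tested on simulated data. Python 3.11.15, pandas 2.3.3, numpy 2.4.6, scipy 1.17.1 and matplotlib 3.10.9 were used.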

Additional observations from a re-analysis of the deposited data

Results flagged for a closer look

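The members had 1 listed interaction with another chromosome, outside the comparisons above. The bait Prdm8-201 on chromosome 5 contacted chr9:37137746-37143150 at a pre-granulosa score of 13.1, and the interaction was listed at 0 in Sertoli cells. With the extended baits the contact, with chr9:37138654-37143719, scored 13.6 in pre-granulosa cells and was again listed at 0 in Sertoli cells. It was singled out as a signal above the threshold in data that the comparisons did not use, and it has no replicate.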

How the results depend on the processing

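The 8 summary values with the original baits were recomputed under 9 alternatives. Of these 2, the narrower memberships, left out no original bait and so could change no value. They were not applied to the extended baits, which include katanin baits and baits that also name an outside gene. Under the other 7, 31 of 56 values moved by less than their interval or within 1.5 times a count and 25 moved further. The ratio stayed above 1 under each, but the share of baits with more Sertoli calls fell below 50% at equal numbers of calls. At a threshold of 7 there were 160 Sertoli and 66 pre-granulosa calls (ratio 2.42), and 26.2% of the Sertoli calls were shared. At 10 there were 57 and 21 (ratio 2.71), 24.6% of the Sertoli calls were shared, and the median distances were 29.6 and 12.1 kb. With the extended baits there were 316 pre-granulosa calls, the ratio was 1.47, 42.0% of the Sertoli calls were shared and 57.3% of baits had more Sertoli calls. From 50 kb there were 140 and 60 calls, shared shares of 17.1% and 40% and medians of 111 and 93.5 kb, the last by construction. At equal numbers of calls over all baits there were 187 Sertoli calls, the ratio was 1.14, shared shares were 40.1% and 45.7%, and 45.3% of baits had more Sertoli calls. No paired analysis was possible because the scores come with a single column for each cell type. Leaving out a library was not possible for the same reason, read depth is unknown, and a score of 0 can stand beside a scored reverse contact.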
